A study of Mus musculus with 12 samples.

Results

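B cell precursors enter the B lineage at the step between the pre-pro-B and the pro-B stage, and here that step was followed in marrow cells that carry a Cebpa reporter on their surface. The tested arrays were the 2 titled hCD4+ pro-B, set against the 2 titled hCD4+ pre-pro-B, 4 of the 12 arrays in the series, and all 18556 genes that passed the filter on dim probes were described. The series holds bone marrow cells sorted from C57BL/6 females at 16 weeks of age, all with the Cebpa-Enh/prom-hCD4 transgene, in which Cebpa enhancer and promoter sequence drives human CD4. The groups used here were hCD4+ pro-B (n = 2), hCD4+ pre-pro-B (n = 2), hCD4- pro-B (n = 2) and hCD4- pre-pro-B (n = 2), with pre-B cells of unstated hCD4 status (n = 2) and hCD4+ granulocyte-monocyte progenitors (GMP, n = 2) as further groups that lent their spread to the fit. The reporter marks activity of the cloned Cebpa sequence, not the Cebpa protein, and per the series title the cells came from 2 mice, without a statement of which array came from which animal.

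The pre-pro-B cell is a lymphoid precursor with little rearrangement of its antibody genes. At the pro-B stage the transcription factors Ebf1 and then Pax5 switch on the B lineage programme, the recombinase Rag1 and Rag2 joins heavy chain gene segments, and interleukin 7 drives growth. Cebpa and its relatives direct the competing granulocyte and monocyte programme, which Pax5 is known to repress.

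RNA was amplified, labelled with Cy3 and hybridised to 1-colour Agilent mouse arrays. A level below is the log2 of a probe's processed signal minus the 75th percentile of its own array, so 0 is the brightness of that percentile, and a change is the difference of 2 group means on that log2 scale. In brackets after a change stand its standard error and its p, adjusted over all genes tested by the Benjamini-Hochberg method, from limma's fit of all 12 arrays. Since p-values measure the spread between arrays that may share an animal, they may in part measure technical spread and having 2 arrays a group keeps the precision low. That percentile was 667.6 and 616.2 signal units on hCD4+ pro-B arrays and 722.4 and 734.5 on hCD4+ pre-pro-B arrays, with 55.5% to 56.7% and 52.4% to 53.2% of probes well above background. Replicates correlated at 0.992 in hCD4+ pro-B and 0.991 in hCD4+ pre-pro-B arrays, with a median standard deviation of 0.123 and 0.110. The hCD4+ pro-B arrays shared slide 3 with the pre-B arrays and the hCD4+ pre-pro-B arrays shared slide 2 with the hCD4- pro-B arrays, so the groups cannot be told apart from their slides. Bulk arrays cannot tell fewer cells of a type from less RNA per cell, and this holds for every change below.

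Stage markers were checked against the labels. The pro-B markers reported here (Cd79a, Cd79b, Vpreb1, Igll1, Ebf1, Pax5, Rag1, Rag2 and Il7r) were well above background on both hCD4+ pro-B arrays. On hCD4+ pre-pro-B arrays Ebf1 and Pax5 were well above background on neither array, and the pre-pro-B markers Flt3, Kit, Il7r, Ptprc, Spn and Cd93 were above it on both. The same 6 markers were above background on both hCD4+ pro-B arrays as well, and 5 of the pro-B markers on both hCD4+ pre-pro-B arrays, so detection alone separates the stages only by the genes named as undetected. Ptprc, which encodes the leukocyte antigen CD45, lay at -0.23 and -0.23 on hCD4+ pro-B arrays, against 1.62 and 1.62 on hCD4+ pre-pro-B arrays, and fell by 1.86 (0.11, adjusted p = 5.37e-06). Spn, the CD43 gene, lay at 4.52 and 4.49 on hCD4+ pro-B arrays, against 5.17 and 5.25 on hCD4+ pre-pro-B arrays, and fell by 0.70. Cd93, a surface receptor of early B precursors, rose by 1.93. None of these 3 genes had groups that overlapped.

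Over all genes tested, 6135 were higher and 3914 lower in hCD4+ pro-B than in hCD4+ pre-pro-B arrays at an adjusted p under 0.05 in limma, which is 33.1% and 21.1% of 18556 genes and 54.2% together. Of these, 3215 rose and 2164 fell by more than 2-fold. The median gene stood at 0.25, and other scalings of the arrays moved that median to between -0.08 and 0.09. Under scaling to the array median, 3513 genes were higher and 5443 lower, so the balance of rises and falls rests on the scaling, and the changes of lists below are given beside the median of all genes.

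The largest rise among genes measured on all 4 arrays was that of Vpreb3, a relative of the surrogate light chain genes, at 7.26 and 7.20 on hCD4+ pro-B arrays, against -3.14 and -1.27 on hCD4+ pre-pro-B arrays. It rose by 9.44 (standard error 0.63, adjusted p = 1.06e-05). Vpreb2 rose by 8.75 (0.37, adjusted p = 1.55e-06), Vpreb1 by 8.24 (0.21, adjusted p = 2.72e-07) and Cd79a by 7.65 (0.28, adjusted p = 1.01e-06), all of which belong to the pre-B cell receptor. Cd81, a tetraspanin gene, was at 4.64 and 4.56 on hCD4+ pro-B arrays, against -2.84 and -1.75 on hCD4+ pre-pro-B arrays, and rose by 6.90 (0.32, adjusted p = 2.23e-06). The remaining rises of that rank were those of the phosphodiesterase gene Pde2a (6.87), the filament gene Bfsp2 (6.80), the myosin light chain gene Myl10 (6.37), the recombinase gene Rag1 (6.05), the ribonuclease gene Rnase12 (5.76), the thioredoxin reductase gene Txnrd3 (5.20) and Rtp4 (5.16). Pde2a, whose product breaks down cyclic nucleotides, was at 7.14 and 7.08 on hCD4+ pro-B arrays, against 0.08 and 0.40 on hCD4+ pre-pro-B arrays. Each of these 12 rises kept its call under all alternatives tried.

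Of the 6135 higher genes, 855 were well above background on both hCD4+ pro-B arrays and on neither hCD4+ pre-pro-B array. For these only a lower bound of the fold can be given. For such a bound the dim group takes, per array, the lowest level at which any probe there still cleared background. The widest bound belonged to Gfra2, a co-receptor for neurturin, which was at least 984-fold higher (levels 5.21 and 5.20 on hCD4+ pro-B arrays, against -6.94 and -6.58 on hCD4+ pre-pro-B arrays, adjusted p = 5.31e-08). Bounds were also wide for Ebf1 at 307-fold, the Bcl2 family member Bok at 155-fold, the sodium channel subunit gene Scn4b at 89.6-fold and the ADP-ribosyltransferase gene Art4 at 77.4-fold. The second probe of Art4 gave a change of 3.75, against 7.87 for the probe above. Because the dim group is unmeasured, fitted changes of such genes depend on the background correction: Ebf1 was 9.58 here and 6.34 after normexp correction with quantile normalization.

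The 12 largest falls among genes with a symbol of their own spanned a narrow range. Sh3bgr, an SH3-binding protein gene, lay at -1.39 and -1.25 on hCD4+ pro-B arrays, against 3.43 and 3.45 on hCD4+ pre-pro-B arrays, and fell by 4.76 (0.27, adjusted p = 5.16e-06). Cdh5, the endothelial cadherin, lay at -2.42 and -2.23 on hCD4+ pro-B arrays, against 2.32 and 2.11 on hCD4+ pre-pro-B arrays, and fell by 4.54 (0.29, adjusted p = 8.19e-06). Next came Gpr162 (-4.52), the collagen receptor kinase Ddr1 (-4.38), Fbxl13 (-4.31), Xkrx (-4.30), the growth factor Pdgfa (-4.28), the surface ligand Cd200 (-4.25), the Src family kinase Fgr (-4.25), the lectin receptor Clec10a (-4.23), Csprs (-4.23) and the inhibitory myeloid receptor Cd300lf (-4.23). Other probes of Csprs gave -3.10 and -0.71, and those of Cd300lf -4.06 and -1.72. Of the 3914 lower genes, 278 had a bound, being well above background on both hCD4+ pre-pro-B arrays and on no hCD4+ pro-B array. The widest were those of Rai2 (at least 14.7-fold lower), the Wnt ligand gene Wnt10a (14.4-fold), Setbp1 (14.3-fold), the lectin gene Cd209c (14.2-fold), the guanylate-binding protein gene Gbp8 (12.5-fold) and Havcr1 (12.3-fold). Wnt10a lost its call without hCD4+ pro-B replicate 1 and without hCD4+ pre-pro-B replicate 1. The largest falls in hCD4+ pro-B cells were thus smaller than the largest rises on the log2 scale, and none reached a change of -5 among genes measured on all 4 arrays.

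B lineage transcription factors mostly rose. Of 15 on the list, 10 were higher (66.7%) and 3 lower (20%) in hCD4+ pro-B arrays, with a median change of 1.31. Over all genes 33.1% were higher and 21.1% lower, with a median of 0.25. Counts and medians over a list cover the members that passed the filter on dim probes, and the number listed is given where some did not. Ebf1, the first of the factors that commit cells to the lineage, stood at 3.57 and 3.48 on hCD4+ pro-B arrays, against -6.86 and -5.26 on hCD4+ pre-pro-B arrays. Its fitted rise was 9.58 (standard error 0.43, adjusted p = 1.88e-06), its groups lay far apart, and its probe maps (mm9) to chromosome 11 at 44818438 to 44818497. Pax5, which holds cells in the lineage once they have entered it, was at -1.20 and -1.32 on hCD4+ pro-B arrays, against -6.94 and -6.85 on hCD4+ pre-pro-B arrays. That is at least 11.1-fold higher (adjusted p = 4.16e-06), and its second probe changed by 3.29. The co-activator gene Pou2af1 was at 5.09 and 5.03 in hCD4+ pro-B, against -5.79 and -3.84 in hCD4+ pre-pro-B cells, and rose by 9.87 (0.61, adjusted p = 7.09e-06). Lef1, a Wnt pathway factor of pro-B cells, rose by 9.59 (0.71, adjusted p = 1.76e-05). For both, 1 of the 2 hCD4+ pre-pro-B arrays was above background. Foxo1, which controls Rag and Il7r transcription, was already bright at 3.75 and 3.51 on hCD4+ pro-B arrays, against 2.34 and 2.31 on hCD4+ pre-pro-B arrays, and rose by 1.31 (0.13, adjusted p = 8.68e-05). Spib, an Ets factor of plasmacytoid dendritic cells and B cells, went the other way at 3.89 and 3.54 on hCD4+ pro-B arrays, against 5.99 and 5.88 on hCD4+ pre-pro-B arrays, and fell by 2.22 (0.19, adjusted p = 3.64e-05).

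**Figure D1:**
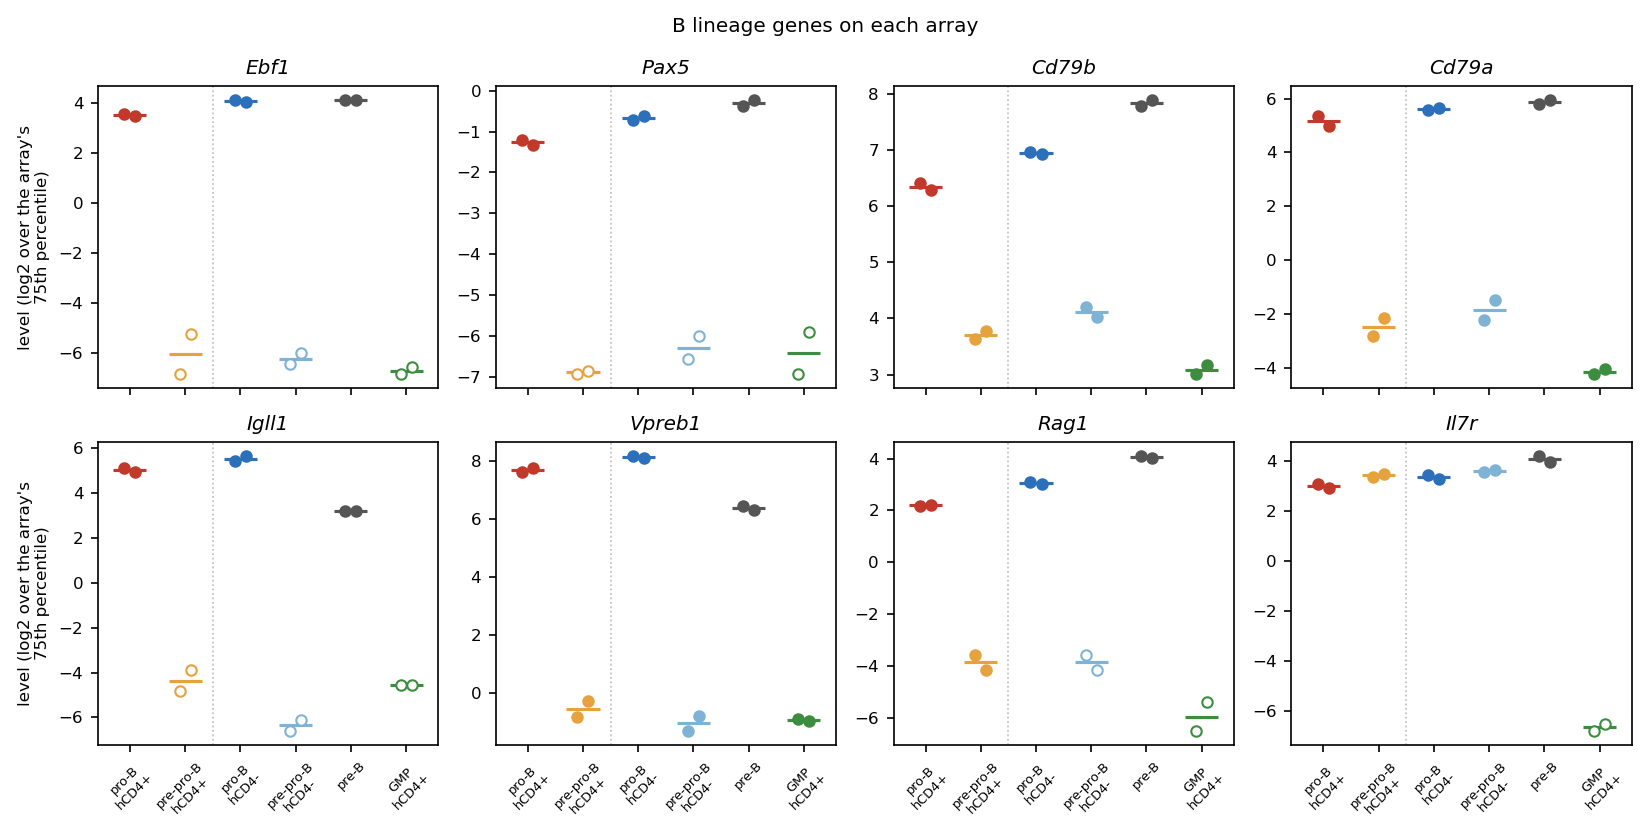
Levels of 8 B lineage genes on each of the 12 arrays, in log2 units over the array's 75th percentile, for 6 groups of 2 arrays each. Points are arrays, short lines are group means, and open points mark groups in which fewer than 2 arrays were well above background. Ebf1 and Pax5 were open in hCD4+ pre-pro-B cells and filled in hCD4+ pro-B cells, while Il7r lay between 2.91 and 3.47 in both.

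The pre-B cell receptor pairs the heavy chain with the surrogate light chain (Igll1 with Vpreb1 or Vpreb2) and signals through Cd79a and Cd79b. Of 13 genes kept from 14 listed for this receptor and its signalling, 9 were higher (69.2%) and 1 lower (7.69%) in hCD4+ pro-B arrays. Among all genes these shares were 33.1% and 21.1%. The median change was 2.63. It was 1.11, with 7 genes higher, when only genes above background on all 4 arrays were used. Igll1, also known as lambda5, lay at 5.12 and 4.93 on hCD4+ pro-B arrays, against -4.83 and -3.89 on hCD4+ pre-pro-B arrays. It rose by 9.38 (0.29, adjusted p = 5.29e-07), with 1 hCD4+ pre-pro-B array above background. Vpreb1 was measured on all 4 arrays at 7.63 and 7.76 in hCD4+ pro-B, against -0.83 and -0.26 in hCD4+ pre-pro-B cells. Cd79a was at 5.34 and 4.98 in hCD4+ pro-B, against -2.82 and -2.17 in hCD4+ pre-pro-B cells, and its second probe rose by 7.50. These receptor parts differed by far more than the spread of their replicates. The signalling kinases and adaptors moved little beside them, with 3 members not called and the Src family kinase gene Lyn called lower.

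Upstream sequences of 2 of these receptor genes are shown because Ebf1 is known to act on them. They are the 250 bases before the gene's start from the RefSeq promoter table (build GRCm38.p6, printed 5′ to 3′ on the gene's strand). Capitals mark a match to CCCNNGGG, the palindromic core of the Ebf1 site, in Igll1, and to CAAGGGA, a single arm of that site with flanking bases, in Cd79a. The Igll1 window is chr16:16863986-16864235, minus strand, and the Cd79a window is chr7:24897247-24897496, plus strand.
Igll1: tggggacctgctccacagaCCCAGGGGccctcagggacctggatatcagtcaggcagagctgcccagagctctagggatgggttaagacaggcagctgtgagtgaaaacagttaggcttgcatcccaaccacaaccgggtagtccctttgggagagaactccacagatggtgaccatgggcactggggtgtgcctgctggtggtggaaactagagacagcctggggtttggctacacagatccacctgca
Cd79a: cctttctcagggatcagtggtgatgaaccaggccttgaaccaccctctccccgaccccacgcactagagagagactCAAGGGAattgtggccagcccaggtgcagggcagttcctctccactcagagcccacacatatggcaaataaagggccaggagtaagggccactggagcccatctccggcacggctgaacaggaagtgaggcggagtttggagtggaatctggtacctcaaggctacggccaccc
Searched on both strands, CCCNNGGG was found in 11.8% of all 32851 promoter windows and CAAGGGA in 4.21%. Of the 10 receptor and signalling genes with a window in the table, CCCNNGGG was found in Igll1 alone and CAAGGGA in Cd79a alone. Among 13 B lineage transcription factors with a window, CCCNNGGG was in Foxo1, Ikzf1 and Spib, which is 23.1%, and CAAGGGA in none. A match describes the letters and not a bound site.

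Genes of V(D)J recombination rose in part, with 6 of 11 higher (54.5%), 1 lower (9.09%) and a median of 1.11, against 33.1% and 21.1% of all genes. Rag1 was at 2.17 and 2.20 on hCD4+ pro-B arrays, against -3.57 and -4.16 on hCD4+ pre-pro-B arrays. It rose by 6.05 (0.35, adjusted p = 5.63e-06), and its second probe by 6.39. Rag2, its partner in the recombinase, was at 1.21 and 1.20 in hCD4+ pro-B, against -4.98 and -4.39 in hCD4+ pre-pro-B cells. It rose by 5.89 (0.31, adjusted p = 3.41e-06), with 3.85 at its second probe. For Rag2 1 hCD4+ pre-pro-B array was above background, and its lowest change among the alternatives was 1.4. Dntt, which adds untemplated bases at the joints, was among the brighter genes of both groups at 7.49 and 7.52 in hCD4+ pro-B, against 4.85 and 5.16 in hCD4+ pre-pro-B cells, and still rose by 2.50 (0.14, adjusted p = 5.03e-06). The end joining genes Xrcc5 and Lig4 rose by 4.54 and 2.09. The groups of these 5 genes did not overlap.

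Interleukin 7 signals through Il7r and STAT5. Of 17 genes of this axis 6 were higher (35.3%) and 4 lower (23.5%), near the 33.1% and 21.1% of all genes. The median was 0.25, like that of all genes. Il7r itself was at 3.09 and 2.91 on hCD4+ pro-B arrays, against 3.37 and 3.47 on hCD4+ pre-pro-B arrays. It fell by 0.42 (0.14, adjusted p = 0.0342), a call that was lost without hCD4+ pro-B replicate 2, without either hCD4+ pre-pro-B replicate, without the filter on dim probes and in a fit of the 4 arrays alone. Targets of STAT5 on the list went both ways, since Bcl2 and Mcl1, which keep cells alive, fell by 1.28 and 0.59. Cish, a feedback inhibitor, was at 0.06 and 0.55 in hCD4+ pro-B, against -5.35 and -3.88 in hCD4+ pre-pro-B cells. It rose by 4.92 (0.58, adjusted p = 1.94e-04), with 1 hCD4+ pre-pro-B array above background, and by 3.06 at the lowest among the alternatives. Socs2 was at least 20.9-fold higher (adjusted p = 1.34e-06), with 3.55 and 4.69 at its other probes. Myc, the growth factor target that drives biosynthesis, was at 1.86 and 2.28 on hCD4+ pro-B arrays, against -3.23 and -2.65 on hCD4+ pre-pro-B arrays, and rose by 5.01 (0.37, adjusted p = 1.68e-05). The cyclin gene Ccnd2 rose by 2.20 (0.25, adjusted p = 1.62e-04), and Ccnd3, which pre-B receptor signalling needs for division, by 1.84 (0.15, adjusted p = 3.05e-05).

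Cell cycle genes rose together. Every one of 25 S phase genes was higher in hCD4+ pro-B arrays (24 or 25 under every alternative), with a median of 1.43. Of 24 G2/M genes, 17 were higher (70.8%) and none lower, with a median of 0.90, against 33.1% and 21.1% of all genes. The G2/M count fell to 9 under scaling to the array median. Gins2, part of the replicative helicase, was at 0.55 and 0.17 in hCD4+ pro-B, against -1.68 and -1.55 in hCD4+ pre-pro-B cells, and rose by 1.98 (0.40, adjusted p = 0.00344). The epigenetic factor Uhrf1 was at 5.79 and 5.88 in hCD4+ pro-B, against 3.88 and 3.94 in hCD4+ pre-pro-B cells, and rose by 1.93 (0.12, adjusted p = 7.87e-06). Pola1, a DNA polymerase subunit, rose by 1.79 (0.13, adjusted p = 1.64e-05) and the histone chaperone gene Chaf1b by 1.73 (0.13, adjusted p = 2.11e-05). Of the 4 arrays, Ccne2 and the mitotic kinase Aurkb were well above background on those of hCD4+ pro-B cells alone, at least 2.7-fold and 9.46-fold higher. Cdk1, the mitotic kinase, was at 2.67 and 2.80 in hCD4+ pro-B, against 1.15 and 0.99 in hCD4+ pre-pro-B cells, and rose by 1.66 (0.12, adjusted p = 1.38e-05), with 0.95 and 4.25 at its other probes. The mitotic checkpoint genes Ttk and Bub1b rose by 1.43 and 1.42. Top2a, which untangles chromosomes, rose by 1.38 (0.41, adjusted p = 0.0216), a call lost without hCD4+ pre-pro-B replicate 2, without either hCD4+ pro-B replicate and under scaling to the array median.

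Glycolysis genes rose as well, with 10 of 16 higher (62.5%), 2 lower (12.5%) and a median of 0.95, against 33.1% and 21.1% of all genes. Tpi1 rose by 2.04 (0.16, adjusted p = 1.98e-05), Pgk1 by 1.52 (0.23, adjusted p = 8.24e-04), the lactate dehydrogenase gene Ldha by 1.33 (0.13, adjusted p = 6.31e-05) and Pdk1, which limits the entry of pyruvate into mitochondria, by 2.11 (0.23, adjusted p = 1.21e-04). The glucose carrier gene Slc2a3 fell by 1.60 (0.14, adjusted p = 4.33e-05).

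Early lymphoid genes split. Of 12, 4 were higher (33.3%) and 5 lower (41.7%), with a median of -0.19. Over all genes 33.1% were higher and 21.1% lower. Flt3, the cytokine receptor of lymphoid-primed progenitors that Pax5 is known to repress, was at 2.68 and 2.55 on hCD4+ pro-B arrays, against 4.25 and 4.50 on hCD4+ pre-pro-B arrays. It fell by 1.76 (0.33, adjusted p = 0.00251), and its other probes gave -1.52 and -0.09. Ly6d, a marker of B-biased progenitors, was at 5.24 and 5.22 in hCD4+ pro-B, against 7.72 and 7.74 in hCD4+ pre-pro-B cells, and fell by 2.50 (0.22, adjusted p = 4.81e-05). The chemokine receptor gene Ccr9 was at 0.96 and 0.80 in hCD4+ pro-B, against 5.23 and 4.94 in hCD4+ pre-pro-B cells, and fell by 4.20 (0.52, adjusted p = 2.54e-04). Lax1, a lymphocyte adaptor, was at least 5.04-fold higher.

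Of 15 stem and multipotent progenitor genes kept from 18 listed, 6 were higher (40%) and 4 lower (26.7%), with a median of 0.79. These shares stood beside 33.1% and 21.1% of all genes. Kit, the stem cell factor receptor that pro-B cells use, was at 0.90 and 0.88 on hCD4+ pro-B arrays, against -1.52 and -1.18 on hCD4+ pre-pro-B arrays, and rose by 2.24 (0.18, adjusted p = 2.44e-05). Gata2 was at least 5.61-fold higher. Tal1 rose by 3.36 (0.30, adjusted p = 4.74e-05), with 1 hCD4+ pre-pro-B array above background, and by 1.77 at the lowest among the alternatives. Both are factors of stem, mast cell and erythroid programmes. Ly6a, the Sca-1 gene, fell by 2.00 (0.38, adjusted p = 0.00252), and Procr was at least 4.33-fold lower. Cd34 was at 2.77 and 2.67 in hCD4+ pro-B, against 0.65 and 1.69 in hCD4+ pre-pro-B cells, a change of 1.55 (0.97, adjusted p = 0.207) without a call.

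Cebpa, whose regulatory sequence drives the reporter, was well above background on all 4 arrays. It lay at -1.44 and -1.94 on hCD4+ pro-B arrays, against -0.34 and -0.63 on hCD4+ pre-pro-B arrays, with its probe on chromosome 7 at 35906517 to 35906576 (mm9). The 2 groups did not overlap, yet the change of -1.21 (standard error 0.49, adjusted p = 0.0685) was not called. It passed the threshold in 9 of the alternatives, among them a fit of the 4 arrays alone, and ran from -1.54 to -0.94 over them. Cd4, which on the array is the mouse gene and not the human reporter, was at 1.92 and 1.79 in hCD4+ pro-B, against 3.13 and 2.85 in hCD4+ pre-pro-B cells, and fell by 1.14 (0.14, adjusted p = 2.45e-04).

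Myeloid transcription factors, Cebpa among them, moved in opposite directions, with a median of -1.20. Of 13 kept from 14 listed, 3 were higher (23.1%) and 6 lower (46.2%), against 33.1% and 21.1% of all genes. Cebpb was at -0.03 and 0.04 in hCD4+ pro-B, against 1.40 and 1.32 in hCD4+ pre-pro-B cells, and fell by 1.36 (0.23, adjusted p = 0.00152). Cebpd fell by 2.33 (0.46, adjusted p = 0.00325). Irf8, a factor of monocytes and dendritic cells that also acts in early B cells, was at 5.35 and 5.07 on hCD4+ pro-B arrays, against 7.85 and 7.84 on hCD4+ pre-pro-B arrays, and fell by 2.64 (0.12, adjusted p = 2.34e-06). Cebpe, the factor of granulocyte maturation, was at -0.62 and -0.79 in hCD4+ pro-B, against -5.04 and -3.11 in hCD4+ pre-pro-B cells, with 1 hCD4+ pre-pro-B array above background, and rose by 3.37 (0.53, adjusted p = 9.41e-04). Gfi1, a repressor shared by granulocyte and lymphoid precursors, was at 1.72 and 1.72 in hCD4+ pro-B, against -1.41 and -1.87 in hCD4+ pre-pro-B cells, and rose by 3.36 (0.20, adjusted p = 5.69e-06). Nfe2, a factor of platelet and red cell precursors, rose by 2.82 (0.32, adjusted p = 1.81e-04). Sfpi1, the PU.1 gene, was at -2.47 and -3.08 in hCD4+ pro-B, against -3.43 and -2.85 in hCD4+ pre-pro-B cells, a change of 0.36 (0.29, adjusted p = 0.315) without a call.

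Myeloid receptors and adaptors fell or were not called, with 9 of 15 lower (60%), none higher and a median of -0.89. Among all genes 21.1% were lower and 33.1% higher. Tyrobp, the DAP12 adaptor, was at 4.07 and 4.01 on hCD4+ pro-B arrays, against 7.54 and 7.56 on hCD4+ pre-pro-B arrays, and fell by 3.51 (0.35, adjusted p = 8.22e-05). Fcer1g, the Fc receptor gamma chain, was at 2.90 and 2.70 in hCD4+ pro-B, against 5.86 and 5.92 in hCD4+ pre-pro-B cells, and fell by 3.09 (0.20, adjusted p = 9.22e-06). Csf2rb, the shared chain of the receptors for GM-CSF, interleukin 3 and interleukin 5, fell by 2.89 (0.15, adjusted p = 3.12e-06), and Cd68 by 3.13 (0.88, adjusted p = 0.0168). Clec12a, with 1 hCD4+ pre-pro-B array and no hCD4+ pro-B array above background, changed by -2.01 (0.39, adjusted p = 0.003). Csf1r and Csf3r, the receptors of macrophages and granulocytes, changed by 0.06 (0.33, adjusted p = 0.889) and 0.20 (0.19, adjusted p = 0.418), neither called, and other Csf1r probes gave -1.13 and 0.58.

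Neutrophil primary granule genes moved against the receptors. Of 12, 8 were higher in hCD4+ pro-B arrays and none lower, with a median of 2.30, at 33.1% of all genes higher. Elane, neutrophil elastase, was at 3.17 and 2.58 on hCD4+ pro-B arrays, against 0.24 and 0.67 on hCD4+ pre-pro-B arrays, and rose by 2.42 (standard error 0.26, adjusted p = 1.18e-04). Prtn3, proteinase 3, was at 1.46 and 0.88 in hCD4+ pro-B, against -2.31 and -1.14 in hCD4+ pre-pro-B cells, and rose by 2.90 (0.54, adjusted p = 0.00243). Ms4a3, a surface gene of granulocyte-monocyte precursors, was at 0.99 and 1.03 in hCD4+ pro-B, against -3.79 and -2.04 in hCD4+ pre-pro-B cells, and rose by 3.92 (0.57, adjusted p = 6.48e-04). Ctsg, cathepsin G, rose by 2.65 (0.83, adjusted p = 0.0265), a call lost without either hCD4+ pro-B replicate, without hCD4+ pre-pro-B replicate 1 and under scaling to the array median. Igsf6 rose by 2.46 (0.37, adjusted p = 7.87e-04). Mpo, the granule peroxidase, was at 6.65 and 6.56 on hCD4+ pro-B arrays, against 3.22 and 4.63 on hCD4+ pre-pro-B arrays. These values did not overlap, but the change of 2.69 (1.26, adjusted p = 0.105) was not called, and its second probe gave 3.44. The standard deviation of Mpo was 2.59 on hCD4- pre-pro-B arrays, which enter the pooled spread, and without either or both of these arrays Mpo passed the threshold (adjusted p = 0.041). The summed signal of the 12 genes, in multiples of the array's 75th percentile, was 188 and 174 on the hCD4+ pro-B arrays and 53.6 and 72.8 on the hCD4+ pre-pro-B arrays, against 1145 and 1362 on GMP arrays. Whether myeloid cells in the sorted fraction take part in these rises was not tested. The C/EBP motif TTGCNNAA was found, on both strands, in the promoter window of Fcnb alone among 11 granule genes with a window (9.09%), against 9.56% of all windows.

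**Figure D2:**
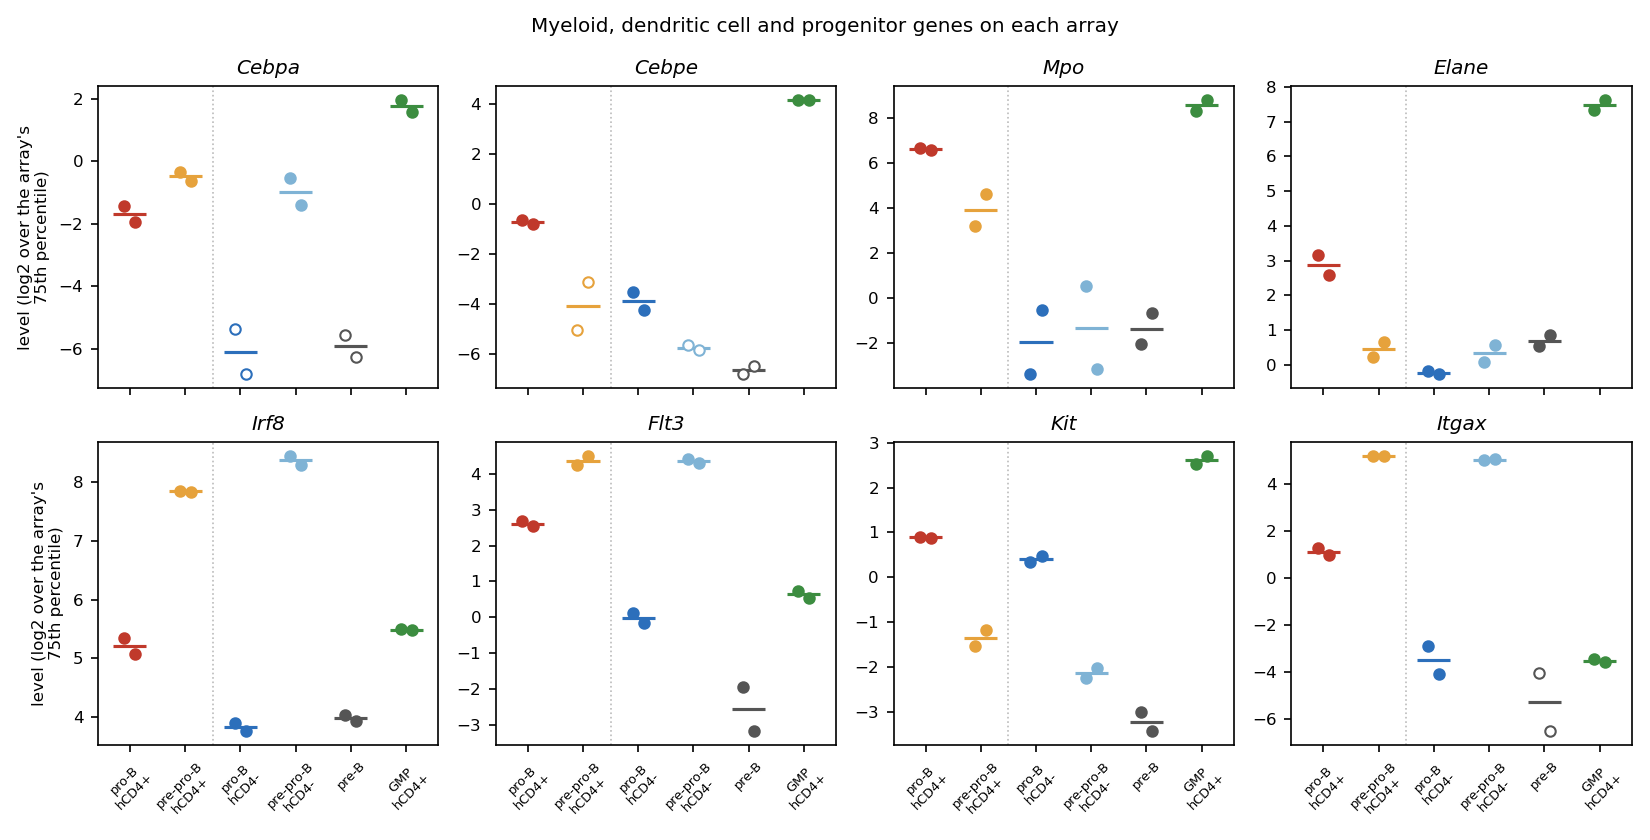
Levels of 8 myeloid, dendritic cell and progenitor genes on each of the 12 arrays, in log2 units over the array's 75th percentile. Points are arrays, short lines are group means, and open points mark groups with fewer than 2 arrays well above background. Elane and Mpo were brighter on hCD4+ pro-B than on hCD4+ pre-pro-B arrays, and Irf8, Flt3 and Itgax dimmer.

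Neutrophil secondary granule and late genes were mostly near background. Of 10 kept from 13 listed, 3 were higher (30%) and none lower, with a median of 1.05, against 33.1% and 21.1% of all genes. Chi3l3, a chitinase-like gene now called Chil3, rose by 2.57 (0.44, adjusted p = 0.00148), with 1 hCD4+ pre-pro-B array above background, and Camp by 1.32 (0.41, adjusted p = 0.0244), with 0.71 at its second probe. Cxcr2, 1 of the 3 counted as higher, was above background on none of the 4 arrays, so its change of 1.78 has no measured fold. S100a8 and Ltf changed by 2.18 and 1.12 without a call.

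Basophil, mast cell and eosinophil genes had a median of 3.20. Of 11 kept from 13 listed, 7 were higher (63.6%) and none lower, against 33.1% and 21.1% of all genes. For 5 of the 11 neither hCD4+ pre-pro-B array was well above background, so they passed the filter through other groups. The size of the median rests on such levels, as it was 1.45 with dim levels set to the detection floor, 0.90 in the authors' deposited table and 0.83 after normexp and quantile normalization. Prss34, a basophil protease, was at 1.66 and 1.28 in hCD4+ pro-B, against -3.49 and -5.33 in hCD4+ pre-pro-B cells, and rose by 5.88 (0.54, adjusted p = 5.42e-05). Mcpt8, another basophil protease, was at 0.54 and 0.51 in hCD4+ pro-B, against -4.39 and -5.10 in hCD4+ pre-pro-B cells, and rose by 5.28 (0.30, adjusted p = 5.21e-06). Hdc, which makes histamine, was at least 15.4-fold higher and Prg3, an eosinophil granule protein, at least 5.27-fold. The mast cell carboxypeptidase gene Cpa3 rose by 4.03 (0.48, adjusted p = 2.06e-04). Only 1 of the 11, Tpsb2, was measured on every array of both groups, and it changed by 0.08 (0.53, adjusted p = 0.913) without a call. With only genes above background on all 4 arrays, 0 list members were higher. The summed signal was small, at 6.7 and 6.62 on the hCD4+ pro-B arrays and 0.419 and 1.13 on the hCD4+ pre-pro-B arrays, and the part of such cells in the other results was not tested.

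Monocyte genes were mixed, with 4 higher (26.7%) and 9 lower (60%) of 15 kept from 16 listed and a median of -1.01. Among all genes 33.1% were higher and 21.1% lower. Mpeg1, the macrophage perforin, was at 3.11 and 3.11 in hCD4+ pro-B, against 6.86 and 6.83 in hCD4+ pre-pro-B cells, and fell by 3.73 (0.50, adjusted p = 4.26e-04). The protease gene Ctss fell by 2.63 (0.10, adjusted p = 1.34e-06). The fractalkine receptor gene Cx3cr1 was at 0.43 and 0.33 in hCD4+ pro-B, against 2.38 and 2.78 in hCD4+ pre-pro-B cells, and fell by 2.20 (0.30, adjusted p = 4.50e-04). Lyz1, a lysozyme, was at 1.79 and 1.72 in hCD4+ pro-B, against -1.20 and -1.29 in hCD4+ pre-pro-B cells, a rise with a standard error of 0.13 (adjusted p = 1.83e-06). Lyz2, its near-identical copy, was at least 6.91-fold higher, and cross-hybridisation between the pair was not tested. F13a1, a clotting factor subunit of monocytes, rose by 2.95 (0.13, adjusted p = 1.75e-06).

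Dendritic cell genes that were called were all lower in hCD4+ pro-B arrays. Of 11 classical dendritic cell genes listed, 6 were kept and these 6 fell, with a median of -3.43, where 21.1% of all genes were lower. Itgax, the CD11c integrin, was at 1.30 and 0.98 on hCD4+ pro-B arrays, against 5.21 and 5.21 on hCD4+ pre-pro-B arrays, and fell by 4.07 (0.68, adjusted p = 0.00137). Clec9a, a receptor for dead cells on cross-presenting cells, was at -1.81 and -1.81 in hCD4+ pro-B, against 1.41 and 1.64 in hCD4+ pre-pro-B cells, and fell by 3.33 (0.45, adjusted p = 4.37e-04), and Cd209a fell by 3.52 (0.82, adjusted p = 0.00722), with -2.48 at its second probe. The cysteine protease inhibitor gene Cst3 fell by 1.23 (0.15, adjusted p = 2.11e-04). Of 14 plasmacytoid dendritic cell genes kept from 15 listed, 11 were lower (78.6%) and none higher, with a median of -2.91. Siglech stayed bright at 6.51 and 6.63 in hCD4+ pro-B, against 6.76 and 6.72 in hCD4+ pre-pro-B cells. Its change of -0.17 (0.18, adjusted p = 0.461) was not called. Pacsin1 and Tlr9 changed by -0.48 and 0.20, neither called. Bst2, the tetherin gene, was at 3.76 and 3.78 on hCD4+ pro-B arrays, against 7.27 and 6.83 on hCD4+ pre-pro-B arrays. It fell by 3.28 (0.27, adjusted p = 3.30e-05). Upb1 was at 1.99 and 1.92 in hCD4+ pro-B, against 6.22 and 6.09 in hCD4+ pre-pro-B cells, and fell by 4.20 (0.46, adjusted p = 1.41e-04). Lair1, an inhibitory collagen receptor, fell by 3.95 (0.20, adjusted p = 2.94e-06), Cox6a2 by 3.88 (0.26, adjusted p = 1.12e-05), Lag3 by 3.57 (0.74, adjusted p = 0.00393) and the factor Runx2 by 3.38 (0.31, adjusted p = 5.17e-05). The summed signal of the plasmacytoid list was 225 and 231 on the hCD4+ pro-B arrays and 812 and 768 on the hCD4+ pre-pro-B arrays, and that of the classical list 27.9 and 23.9 on the hCD4+ pro-B arrays and 122 and 132 on the hCD4+ pre-pro-B arrays. These 14 and 6 genes were well above background on all 4 arrays, and whether dendritic cells in that gate take part in the falls was not tested.

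Class II antigen presentation genes fell too. Of 10 genes 8 were lower (80%) and 1 higher (10%), with a median of -2.10, against 21.1% and 33.1% of all genes. H2-Aa was at -0.78 and -1.32 on hCD4+ pro-B arrays, against 1.76 and 1.33 on hCD4+ pre-pro-B arrays, and fell by 2.59 (0.32, adjusted p = 2.79e-04). H2-Eb1 fell by 2.44 (0.42, adjusted p = 0.00156), the peptide loading gene H2-DMb1 by 2.33 (0.19, adjusted p = 2.72e-05) and Cd74, the invariant chain, by 2.51 (0.53, adjusted p = 0.00443). H2-Ob, which restrains loading in B cells, was the member that rose, at 1.49 and 1.51 in hCD4+ pro-B, against -1.05 and -0.44 in hCD4+ pre-pro-B cells, by 2.25 (0.22, adjusted p = 8.53e-05).

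Interferon response genes fell in the majority, with 12 of 20 lower (60%), 5 higher (25%) and a median of -1.36, against 21.1% and 33.1% of all genes. Mx1, an antiviral GTPase, was at -1.15 and -0.87 on hCD4+ pro-B arrays, against 2.57 and 2.50 on hCD4+ pre-pro-B arrays, and fell by 3.55 (0.17, adjusted p = 2.23e-06). Its relative Mx2 fell by 2.88. Irf7, the factor that amplifies the response, was at -2.21 and -2.98 in hCD4+ pro-B, against 0.56 and 0.70 in hCD4+ pre-pro-B cells, and fell by 3.23 (0.34, adjusted p = 1.19e-04). Rtp4 ran against the list at 1.24 and 1.21 on hCD4+ pro-B arrays, against -4.13 and -3.73 on hCD4+ pre-pro-B arrays, and rose by 5.16 (0.24, adjusted p = 2.26e-06). The list's summed signal was 38.9 and 37.5 on the hCD4+ pro-B arrays and 210.3 and 171 on the hCD4+ pre-pro-B arrays. Bst2 and Irf7 also stand on the plasmacytoid list.

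Upstream sequences of 2 interferon response genes are shown because the list did not move as one, and capitals mark matches to the core of the interferon-stimulated response element, which is 2 copies of GAAA with any 2 bases between them. Isg15, a ubiquitin-like modifier, was chosen for print with Bst2 after its values were seen. The 250 bases before the gene's start are from RefSeq (GRCm38.p6), at chr4:156200819-156201068, minus strand for Isg15 and at chr8:71537473-71537722, minus strand for Bst2.
Isg15: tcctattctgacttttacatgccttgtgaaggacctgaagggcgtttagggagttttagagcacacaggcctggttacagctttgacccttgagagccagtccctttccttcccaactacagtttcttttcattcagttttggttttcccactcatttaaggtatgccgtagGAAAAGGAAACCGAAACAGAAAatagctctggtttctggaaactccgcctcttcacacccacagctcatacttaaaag
Bst2: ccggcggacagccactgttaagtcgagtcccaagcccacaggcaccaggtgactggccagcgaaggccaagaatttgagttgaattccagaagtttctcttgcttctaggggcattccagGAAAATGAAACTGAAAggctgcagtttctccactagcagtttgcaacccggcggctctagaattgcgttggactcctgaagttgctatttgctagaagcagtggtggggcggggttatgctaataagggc
The Isg15 window held 3 overlapping matches, the first beginning 78 bases before the start, and that of Bst2 held 2, the first beginning 130 bases before it. On both strands this core was found in 7 of 15 interferon genes with a window (46.7%), namely Bst2, Ifit1, Ifit3, Isg15, Oas1a, Rsad2 and Stat2, and in 2.98% of all windows. Holders of the match moved both ways: Stat2, Rsad2 and Isg15 fell by 2.72, 2.04 and 0.98, Oas1a rose by 1.99, and Ifit3 changed by 0.16 (adjusted p = 0.594). Ifit1 was called higher with neither hCD4+ pre-pro-B array above background. These genes were named for the match, after their values were seen.

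**Figure D3:**
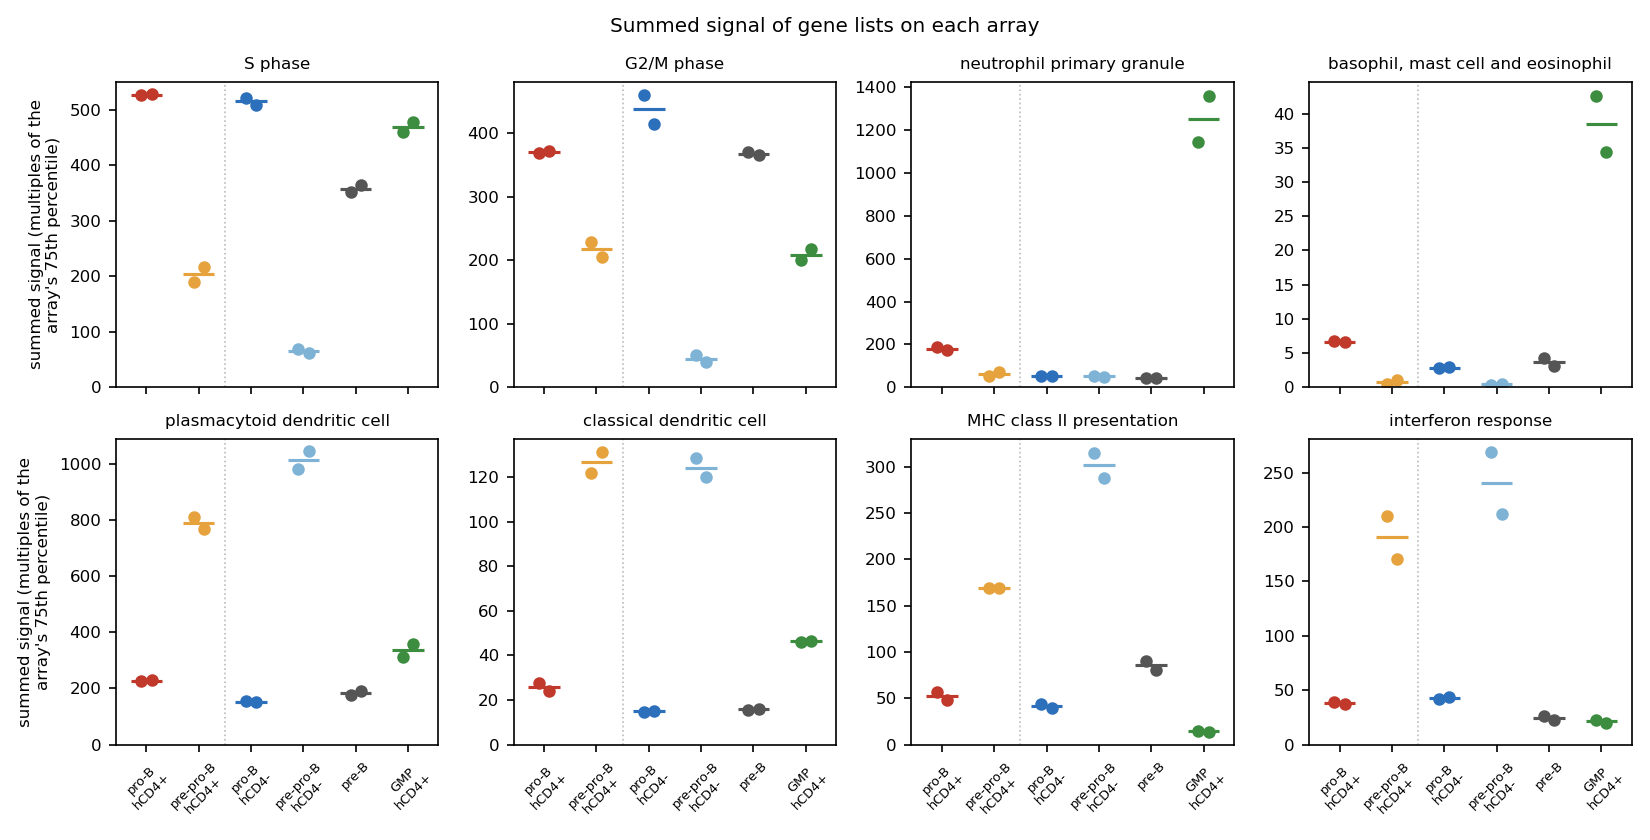
Summed signal of the kept members of 8 gene lists on each array, in multiples of the array's 75th percentile on a linear scale that starts at 0. Points are arrays and short lines are group means. S phase and G2/M sums were higher on hCD4+ pro-B than on hCD4+ pre-pro-B arrays, and the dendritic cell, class II and interferon sums lower.

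Later B cell surface genes were called about as often as genes at large (33.1% higher and 21.1% lower), with 5 of 15 higher, 3 lower and a median of 0.31. Cd2 was at 0.52 and 0.02 in hCD4+ pro-B, against -3.40 and -3.26 in hCD4+ pre-pro-B cells, and rose by 3.60 (0.23, adjusted p = 7.92e-06). Ms4a1, the CD20 gene, was at least 2.12-fold higher, the interleukin 2 receptor gene Il2ra rose by 2.18 (0.33, adjusted p = 7.28e-04) and the adaptor gene Bank1 by 1.68 (0.36, adjusted p = 0.00484). Cxcr5, above background on 1 hCD4+ pro-B array alone, changed by 2.47. Of 8 plasma cell genes kept from 9 listed, 2 were higher (25%) and 4 lower (50%), with a median of -1.22. Xbp1, the factor of the unfolded protein response, was at 2.74 and 2.86 in hCD4+ pro-B, against 5.38 and 5.10 in hCD4+ pre-pro-B cells, and fell by 2.44 (0.14, adjusted p = 5.46e-06). Creb3l2 fell by 2.72 (0.24, adjusted p = 4.81e-05) and Ell2 was at least 3.54-fold lower. Prdm1 rose by 2.30 (0.35, adjusted p = 7.56e-04), with 1 hCD4+ pre-pro-B array above background, and by 0.76 at the lowest among the alternatives. Igj changed by -1.66 (0.82, adjusted p = 0.119), not called, with a wide spread between the hCD4+ pro-B arrays (-3.64 and -6.73).

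Homing receptors fell more often than they rose, with 7 of 14 lower (50%), 3 higher (21.4%) and a median of -0.48. Among all genes 21.1% were lower and 33.1% higher. S1pr1, the receptor that guides exit into blood, was at 0.47 and 0.28 in hCD4+ pro-B, against -4.54 and -4.81 in hCD4+ pre-pro-B cells, and rose by 5.05 (0.71, adjusted p = 5.25e-04). Markers of other lineages were mixed. Of 12 T cell genes kept from 15 listed, 4 were higher (33.3%) and 6 lower (50%), with a median of -0.46. All genes gave 33.1% and 21.1%. Cd8a was at -4.06 and -3.65 in hCD4+ pro-B, against 0.21 and 0.39 in hCD4+ pre-pro-B cells, and fell by 4.15 (0.23, adjusted p = 4.78e-06) with -2.68 at its second probe, Cd8b1 fell by 2.62 (0.90, adjusted p = 0.0379), Thy1 fell by 1.81 (0.17, adjusted p = 5.36e-05), Ptcra was at least 3.45-fold lower, and Tcf7 was at least 2.58-fold higher. Of 5 natural killer cell genes kept from 12 listed, 3 were higher (60%) and 1 lower (20%), with a median of 1.16. Klrd1 fell by 4.14 (0.32, adjusted p = 2.12e-05), Nkg7 rose by 1.61 with 4.56 at its second probe, and Prf1 rose by 1.16. Klrb1c, 1 of the 3 counted as higher, was above background on none of the 4 arrays, so its rise has no measured fold. Ccl5 changed by 0.68 (0.72, adjusted p = 0.45), not called. Of 9 erythroid genes kept from 11 listed, 5 were higher (55.6%) and 1 lower (11.1%), with a median of 1.72. Car2, a carbonic anhydrase, rose by 4.62 (0.24, adjusted p = 3.41e-06), Gata1 by 2.22 (0.52, adjusted p = 0.00744), Klf1 was at least 2.09-fold higher, and the transferrin receptor gene Tfrc fell by 1.72 (0.44, adjusted p = 0.0113). The beta globin gene Hbb-b1 changed by 2.03 (0.77, adjusted p = 0.0544), not called. Of 6 megakaryocyte genes kept from 8 listed, 1 was higher (16.7%) and 2 lower (33.3%), with a median of -0.68. Itgb3 was at 0.07 and -0.45 in hCD4+ pro-B, against 3.45 and 3.54 in hCD4+ pre-pro-B cells, and fell by 3.69 (0.18, adjusted p = 2.61e-06), and Gp9 was at least 5.11-fold higher. Vwf changed by -1.40 (0.59, adjusted p = 0.0732) without a call, and Itga2b was above background on none of the 4 arrays. The summed signals of these lists were 21.4 and 19.2 on the hCD4+ pro-B arrays and 29.7 and 29.3 on the hCD4+ pre-pro-B arrays for T cells, 6.98 and 6.4 on the hCD4+ pro-B arrays and 10.8 and 11.5 on the hCD4+ pre-pro-B arrays for natural killer cells, 6.61 and 7.03 on the hCD4+ pro-B arrays and 10.4 and 8.41 on the hCD4+ pre-pro-B arrays for erythroid cells and 1.61 and 1.08 on the hCD4+ pro-B arrays and 12.3 and 12.6 on the hCD4+ pre-pro-B arrays for megakaryocytes, and the part of such cells in the other results was not tested. Immediate early and handling stress genes gave 1 higher (7.14%) and 2 lower (14.3%) of 14 kept from 15 listed, with a median of -0.16. Both shares lay below those of all genes. Ier3 rose by 1.92 (0.61, adjusted p = 0.0272). Fosb fell by 1.81 (0.29, adjusted p = 0.00104), Fos by 1.26 (0.43, adjusted p = 0.036), Egr2 changed by -1.20 (0.66, adjusted p = 0.154) without a call, and the heat shock gene Hspa1a varied widely at 1.44 and 2.56 in hCD4+ pro-B, against -2.63 and 1.21 in hCD4+ pre-pro-B cells.

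**Figure D4:**
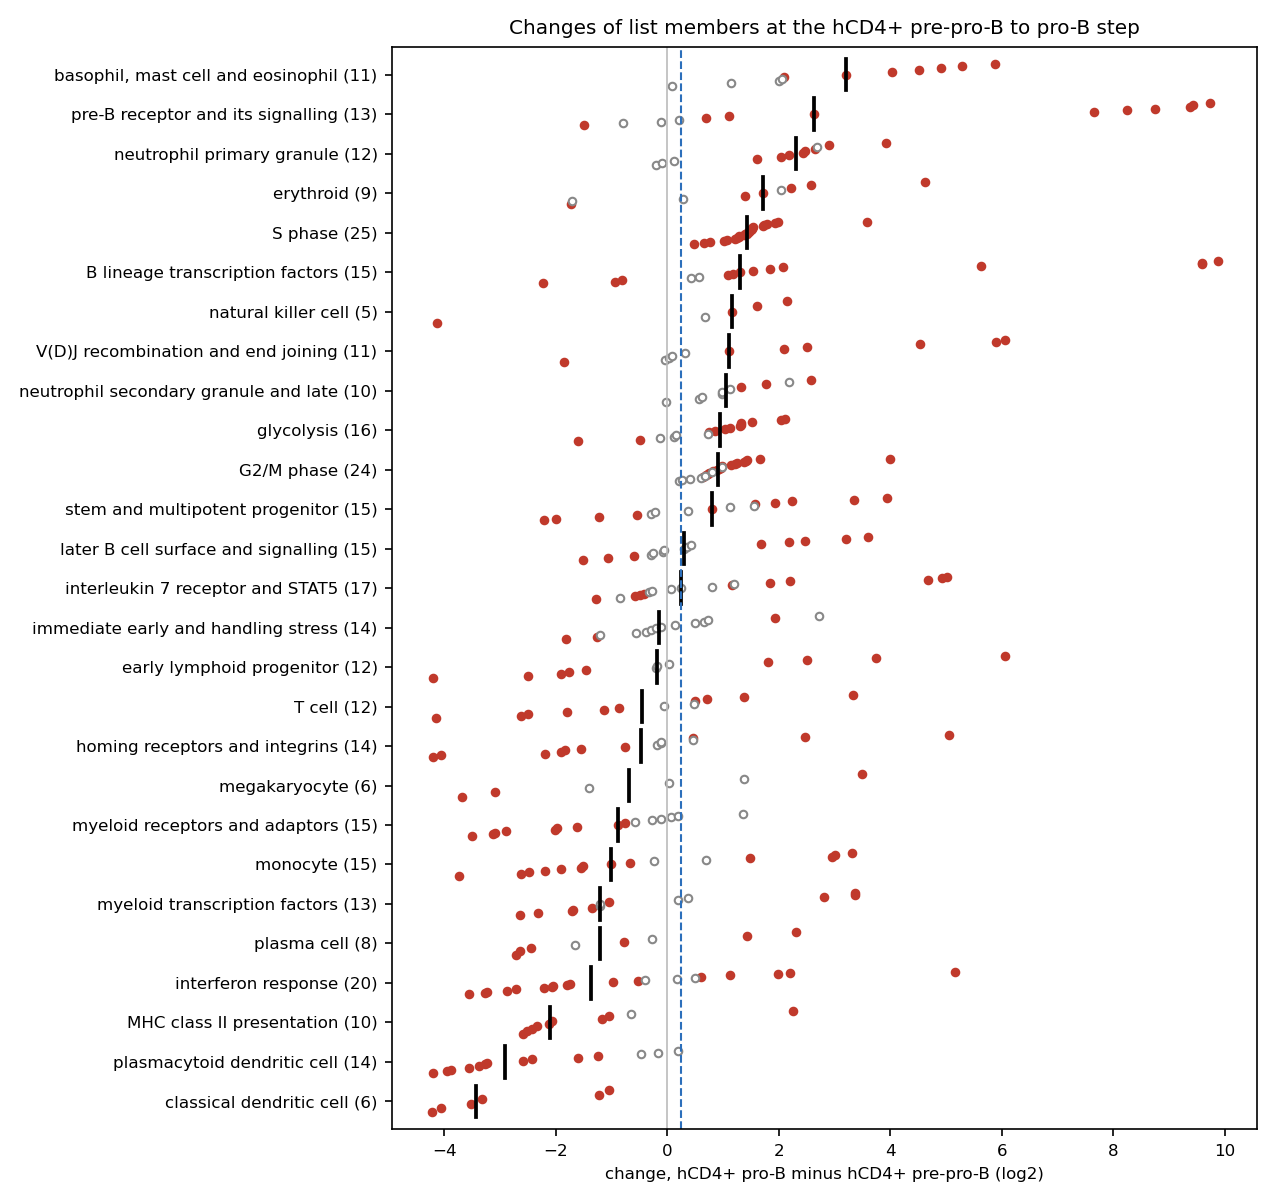
Changes of the kept members of 27 gene lists, hCD4+ pro-B minus hCD4+ pre-pro-B on the log2 scale, sorted by list median, with the number of kept members in brackets. Filled points passed an adjusted p under 0.05, open points did not, thick black lines are list medians and the dashed line is the median of all genes at 0.25. Medians ran from -3.43 for classical dendritic cell genes to 3.20 for basophil, mast cell and eosinophil genes, the last of which rests on genes not measured in hCD4+ pre-pro-B cells.

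The same step was compared with that of cells without the reporter by testing the difference between the hCD4+ and the hCD4- change, which share no array. Slide 1 held the hCD4- pre-pro-B arrays, slide 2 the hCD4- pro-B and hCD4+ pre-pro-B arrays and slide 3 the hCD4+ pro-B arrays. Scan runs followed the slides, so the difference of the steps cannot be told apart from slide and scan run. The difference was higher for 2417 genes (13%) and lower for 1855 (10%). Of genes called in the hCD4+ step, 7629 were also called in the hCD4- step, 7260 of them in the same direction. Among B lineage transcription factors the difference was lower for 5 of 15 (Ikzf1, Irf4, Bach2, Sox4 and Myb) and higher for 1, Bcl11a, and it was lower for 3 of 11 V(D)J genes and 6 of 15 later B cell genes and higher for none of these. Irf4, a factor of the pre-B stage, rose by 2.08 in hCD4+ and 2.96 in hCD4- cells, a difference of -0.88 (0.23, adjusted p = 0.0298). Lig4 rose by 2.09 in hCD4+ and 3.97 in hCD4- cells, a difference of -1.88 (0.36, adjusted p = 0.00921). Ccnd3 differed by -0.72 (0.21, adjusted p = 0.0438), a call lost in 12 alternatives. Ebf1 and Pax5 were well above background on both pro-B arrays of each reporter class and on no pre-pro-B array, so both rose in each step, but the sizes of their steps cannot be compared. Igll1 and Rag2 were above background on 1 hCD4+ pre-pro-B array and on no hCD4- pre-pro-B array. Their fitted differences of -2.51 (0.41, adjusted p = 0.00504) and -1.47 (0.43, adjusted p = 0.0427) rest on those levels, and with dim levels set to the detection floor they became -0.34 and -0.24, neither called. Of the 6 groups, hCD4- pre-pro-B had the dimmest arrays and the widest spread (median standard deviation 0.221), and every value of this comparison uses them.

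Many myeloid and dendritic cell genes fell less in the hCD4+ step. The difference was higher for 5 of the 6 classical and 10 of the 14 plasmacytoid dendritic cell genes and for 7 of 10 class II genes. It was higher for 9 and lower for 2 of 15 monocyte genes. Neutrophil secondary granule and late genes went the other way, with 3 of 10 lower, 1 higher and a median difference of -2.37. Of these 10, 4 were above background on neither hCD4+ pro-B array. Their summed signal was 26.8 and 14.7 on hCD4- pro-B arrays, against 1.45 and 0.93 on hCD4+ pro-B arrays. Cebpa changed by -1.21 in hCD4+ cells and by -5.13 in hCD4- cells, where it was at -5.38 and -6.83 on pro-B and -0.53 and -1.41 on pre-pro-B arrays, with neither hCD4- pro-B array well above background. The fitted difference of 3.93 (0.70, adjusted p = 0.00711) therefore depends on an unmeasured level. With dim levels set to the detection floor it was 2.64, and it was called in all alternatives, at 1.23 to 4.65. Irf8 differed by 1.91 (0.18, adjusted p = 4.32e-04), Flt3 by 2.62 (0.47, adjusted p = 0.00752), Cebpb by 1.49 (0.33, adjusted p = 0.0164), a call lost in 3 alternatives, and Cd4 by 1.62 (0.20, adjusted p = 0.00141). Elane rose in hCD4+ cells and changed by -0.56 in hCD4- cells, a difference of 2.99 (0.37, adjusted p = 0.00148). For Mpo the difference was 3.33 (1.78, adjusted p = 0.206), not called. The largest positive differences among genes that cleared background somewhere in each of the 4 groups were those of Rims1, Elk4, Pltp, Cd209a, Itgax and Pkdcc. Pltp, a phospholipid transfer protein, was at -0.01 and -0.28 in hCD4+ pro-B, against 1.74 and 1.73 in hCD4+ pre-pro-B cells, with -2.66 and -3.97 on hCD4- pro-B and 3.11 and 3.54 on hCD4- pre-pro-B arrays, and differed by 4.76 (0.73, adjusted p = 0.00389). Itgax differed by 4.46 (0.97, adjusted p = 0.0155), Cd209a by 4.49 (1.16, adjusted p = 0.0287) and Pkdcc, a secreted kinase, by 4.31 (0.87, adjusted p = 0.0118). Rims1 and Elk4 varied between the hCD4+ pro-B arrays (2.50 and 4.47, and 4.83 and 6.84), and differed by 4.86 (1.04, adjusted p = 0.0149) and 4.86 (1.00, adjusted p = 0.0128), while other Elk4 probes changed by 0.63 and 0.85 in the hCD4+ step. The Cd209a difference lost its call in 8 alternatives, among them those that left out either hCD4+ pro-B replicate, either hCD4+ pre-pro-B replicate or replicate 2 of either hCD4- group. The Itgax difference lost its call without hCD4+ pro-B replicate 1 or hCD4- pro-B replicate 2, and that of Rims1 without hCD4+ pre-pro-B replicate 2 or hCD4- pro-B replicate 2.

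Cell cycle genes rose less in the hCD4+ step. The difference was lower for 23 of 25 S phase genes and higher for 1, Ccne2, and lower for 23 of 24 G2/M genes, with medians of -1.70 and -2.54 against 0.06 over all genes. Cdc25b, the phosphatase that starts mitosis, was at 2.99 and 2.69 in hCD4+ pro-B, against 2.02 and 1.96 in hCD4+ pre-pro-B cells, with 4.28 and 4.25 on hCD4- pro-B and -0.40 and -0.98 on hCD4- pre-pro-B arrays. It differed by -4.10 (0.26, adjusted p = 1.63e-04). Nuf2, a kinetochore gene, was at 1.03 and 1.04 in hCD4+ pro-B, against 0.18 and -0.06 in hCD4+ pre-pro-B cells, with 1.29 and 1.20 on hCD4- pro-B and -2.46 and -4.16 on hCD4- pre-pro-B arrays, and differed by -3.58 (0.63, adjusted p = 0.00709). Cenpn, a centromere gene, differed by -3.47 (0.72, adjusted p = 0.0129) and the mitotic kinase Pbk by -3.34 (0.50, adjusted p = 0.00366). Egr1, an immediate early gene, differed by -3.54 (0.95, adjusted p = 0.0319), a call lost in 7 alternatives, among them those without either hCD4+ pro-B or either hCD4+ pre-pro-B replicate. Pf4, a platelet chemokine, was at -2.35 and -3.95 in hCD4+ pro-B, against 0.23 and -0.36 in hCD4+ pre-pro-B cells, changed by 2.54 in hCD4- cells, and differed by -5.63 (1.23, adjusted p = 0.0156), a call lost without hCD4+ pro-B replicate 2 or hCD4- pro-B replicate 2. On hCD4- pre-pro-B arrays Cdc25b and Nuf2 lay below their level on hCD4+ pre-pro-B arrays, so the 2 steps began at different levels. The summed signal of the G2/M list was 369 and 372 on the hCD4+ pro-B arrays and 229 and 206 on the hCD4+ pre-pro-B arrays. It was 460.5 and 414.6 on hCD4- pro-B and 50.6 and 39.2 on hCD4- pre-pro-B arrays. The S phase sum was 525.7 and 527.5 on hCD4+ pro-B and 520.3 and 509.3 on hCD4- pro-B arrays. On pre-pro-B arrays it was 189.3 and 217.2 in hCD4+ and 68.9 and 61.4 in hCD4- cells. Both lists thus also began at a lower level in the hCD4- step.

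**Figure D5:**
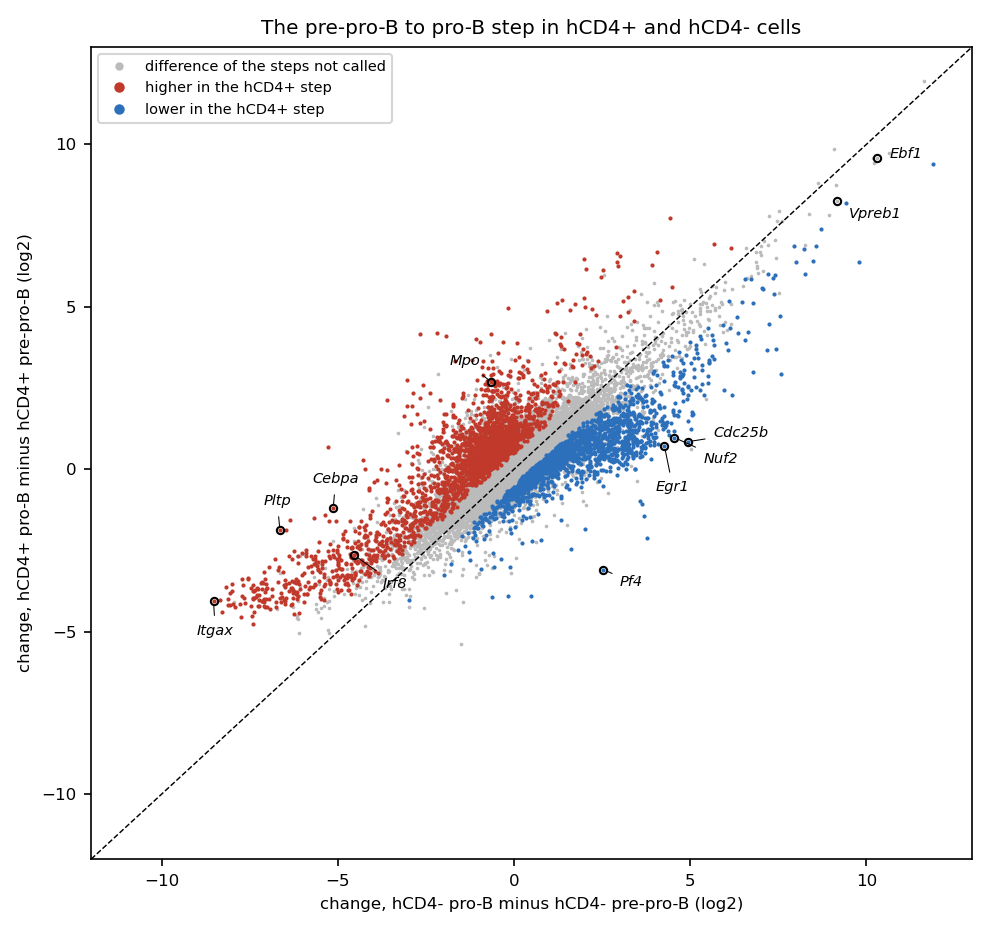
Change at the pre-pro-B to pro-B step in hCD4+ cells (vertical axis) against the same step in hCD4- cells (horizontal axis), both on the log2 scale, for the genes tested. Red and blue points passed the test of the difference in either direction (2417 and 1855 genes), grey points did not, and the dashed line marks equal change. Vpreb1 lies near the line, Itgax, Pltp and Cebpa above it, and Cdc25b, Nuf2 and Pf4 below it.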

How the data were processed

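Total RNA of FACS-sorted marrow cells was measured on 12 Agilent 1-colour arrays in 6 groups of 2, grouped by their titles. Per the file headers the authors' deposited scanner files were made with Agilent Feature Extraction 10.7.3.1, and the processed signal in them is a linear intensity with the background already subtracted. The deposited series table holds log2 values of the same arrays, with the authors' scaling not given in the sources used here, and served as an alternative. Here 2469 spot values marked as outliers were set to missing, spots of a probe were averaged, and levels were taken as log2 minus the array's 75th percentile. Probes that cleared background, by the software's mark, on each array of 1 or more groups were kept. Each of 18556 genes was represented by its brightest kept probe, and another kept probe of a named gene is given where its change differed by over 1 on the log2 scale.

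All 12 arrays were fitted with limma 3.58.1 in R 4.3.3 (6 residual and 2.15 prior degrees of freedom), with Benjamini-Hochberg adjustment over all genes and a threshold of 0.05. Bounds of a fold used, per array, the lowest level that cleared background or the probe's own if higher, and hold for this processing alone. The script was tested on simulated data. Named genes were the 12 largest changes in each direction among genes measured on all 4 arrays and the 6 widest bounds in each direction. Up to 5 per list, 26 genes always named and the 6 largest called differences of the steps in each direction were added. The last were taken among genes above background on at least 1 array of each of the 4 groups. Genes known by a clone or accession number alone were not named, and 1 gene that the rule picks is not reported here. The genes, lists and tests were chosen with earlier results of these data known. Alternatives covered background, scaling, filter, floor, probe choice, array weights, samples fitted, replicate block and the deposited table. Whether equal replicate numbers pair arrays was checked by correlating deviations from group means, which gave 0.07 between the 2 groups compared, and the numbers were not used as pairs. Promoter sequences are from RefSeq, and older symbols were kept as the files give them (Sfpi1 for Spi1, Igj for Jchain).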

Additional observations from a re-analysis of the deposited data

Results flagged for a closer look

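The step differed between hCD4+ and hCD4- cells, by limma's test of the difference with adjustment over all genes, for 9 of the 26 genes always named and for the 12 genes with the largest differences. Values are the hCD4+ change minus the hCD4- change on the log2 scale. Higher differences were found for Rims1 (4.86), Elk4 (4.86), Pltp (4.76), Cd209a (4.49), Itgax (4.46), Pkdcc (4.31), Cebpa (3.93), Elane (2.99), Flt3 (2.62), Irf8 (1.91), Cd4 (1.62) and Cebpb (1.49). Lower differences were found for Ccnd3 (-0.72), Rag2 (-1.47), Igll1 (-2.51), Pbk (-3.34), Cenpn (-3.47), Egr1 (-3.54), Nuf2 (-3.58), Cdc25b (-4.10) and Pf4 (-5.63). The values of Igll1 and Rag2 rest on pre-pro-B levels not above background and lost their call with dim levels set to the detection floor, and that of Cebpa rests on an unmeasured hCD4- pro-B level. Groups of 2 arrays are too small for a check of single outlying arrays.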

How the results depend on the processing

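The counts of the step stayed within 1.5 times of 6135 higher and 3914 lower genes in all alternatives except scaling to the array median, which gave 3513 higher (and 5443 lower). Calls were higher in 61.1% of cases here, against 39.2% with array median scaling, 48.5% with cyclic loess, 53.2% with quantile normalization, 52.9% with normexp and quantile normalization, and 52.2% in the authors' deposited table. Leaving out each array in turn gave 4667 to 6835 higher and 3153 to 4117 lower genes. For the difference of the steps, array median scaling gave 1145 higher and 5209 lower genes, no filter on dim probes gave 1149 lower, and leaving out each array in turn gave 1103 to 3584 higher and 936 to 2500 lower, the most of both without hCD4- pre-pro-B replicate 1. Calls of the difference were higher in 56.6% of cases here, 18.0% with array median scaling and 42.1% with cyclic loess. The cause of these shifts was not tested.

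The fit with the replicate number as a block gave 6379 higher and 4021 lower genes for the step and 2805 and 1988 for the difference. Deviations of equally numbered arrays correlated above 0.1 in 10 of 15 pairs of groups but not in all, and at 0.07 between the groups compared, and no label says what a number marks, so a shared factor was not established. With the block Cebpa was called and Elk4 was not. Without both hCD4- pre-pro-B arrays, an alternative chosen after seeing the data, 6835 genes were higher and 4117 lower.

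Of 178 named genes 161 were called, and 140 kept their call in every setting. No change of the step reversed. The difference of the steps for Pax5, not called here, was -0.45 and called in the authors' deposited table. Over 4399 gene and setting values, 102 lost a call and 56 gained one. Il7r, Top2a, Ctsg, Camp, Cxcr2, Fos, Ier3, Cd8b1, Rims1, Elk4, Cenpn, Pbk, Pltp, Pf4, Cd68, Tfrc, Wnt10a, Klrb1c, Cxcr5, Clec12a and Cdc25b lost their call of the step in at least 1 setting. Cebpa, Mpo, Cd34, Nuf2, Hbb-b1, Vwf, Egr2, S100a8, Itga2b, Igj and Ltf gained one. Rises against a group not measured on both of its arrays shrank with the background correction, to 7.38 for Igll1 after normexp and quantile normalization. Genes near the detection floor, where signal over background is small, have no measured fold.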
